A study of Homo sapiens with 9 samples.

Results

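The natriuretic peptide receptors NPR3, NPR1 and NPR2 and the cGMP-dependent protein kinases PRKG1 and PRKG2 were followed by symbol, 5 genes of the 56809 in a table of estimated counts. All 5 symbols were found, and each stood for 1 gene ID. NPR3 was chosen by its measured counts in these same libraries, being lower than control in both hairpin groups, so its levels against control are a description, with no test. NPR1, NPR2, PRKG1 and PRKG2 were added as its family and downstream kinases.

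RNA was sequenced from MDA-MB-468, an established human breast adenocarcinoma line of the triple-negative type. The control cells carried the empty lentiviral hairpin vector pSicoR, and the other groups carried pSicoR with the hairpin shLMO2-1 or shLMO2-2. A short hairpin RNA lowers transcripts it pairs with, and these are named for LMO2, a LIM-domain cofactor that joins GATA factors and E-box-binding proteins. Each of the 3 groups had 3 libraries from 200000 cells each, and the labels do not say whether they came from separate cultures, so p-values measure the spread between these libraries, which may be technical.

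Natriuretic peptides are hormones and local signals that lower blood pressure and volume and, for C-type natriuretic peptide, drive bone growth. NPR1 (for ANP and BNP) and NPR2 (for C-type natriuretic peptide) are membrane guanylyl cyclases, which make cGMP when bound, and cGMP activates PRKG1 and PRKG2. NPR3, the clearance receptor, binds all these peptides, has no cyclase domain, takes its ligands into the cell for breakdown, and can act through the inhibitory G proteins on adenylyl cyclase and phospholipase C beta. These genes are best known from heart, vessel, kidney and cartilage.

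NPR3 lies on chromosome 5 at 32689070–32791724, plus strand, and overlaps no other gene (GENCODE 29, GRCh38). The annotation holds 7 transcripts that start at 7 positions, and RefSeq gives promoter windows for 2 starts that lie 19777 bases apart. The counts are summed per gene, so use of one start cannot be told from use of another. The 250 bases before the first RefSeq start are shown because LMO2 itself does not bind DNA and is known to be held at E-boxes (CANNTG) and GATA motifs by its partners. This window was at chr5:32690622-32690871 (GRCh38.p14, plus strand, 5′ to 3′), with E-boxes in capitals. It lies inside the GENCODE gene body, which begins at 32689070, so it is upstream of that RefSeq start and not of the whole gene.

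NPR3 upstream window: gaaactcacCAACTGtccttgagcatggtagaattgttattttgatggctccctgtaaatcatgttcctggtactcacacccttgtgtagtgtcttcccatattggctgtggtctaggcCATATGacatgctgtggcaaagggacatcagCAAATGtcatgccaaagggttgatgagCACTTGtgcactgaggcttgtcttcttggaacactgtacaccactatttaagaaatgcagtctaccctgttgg

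The window held 4 E-boxes and no GATAA on either strand. The window of the other NPR3 start, at chr5:32710399-32710648, held neither motif, and it overlaps the first exon of a longer NPR3 transcript. Of 35116 RefSeq windows of 250 bases, 61.8% held an E-box and 20.4% a GATAA. These shares count every window with any match, and the share with 4 E-boxes was not counted. These matches are letters only, since binding was not measured here.

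Library totals were between 15494486 and 23069456 counts, with the shLMO2-2 libraries deepest. All 8 epithelial markers looked for (EPCAM, CDH1, 5 keratins and EGFR) passed the filter on low counts, with summed levels of 14013 to 14821 CPM in control, 16124 to 17238 in shLMO2-1 and 15606 to 17613 in shLMO2-2. Of the receptors low in triple-negative tumours, PGR was at 0 in all libraries, ESR1 averaged 5.38 CPM (control), 2.91 (shLMO2-1) and 3.38 (shLMO2-2) and was called lower in the mean of both hairpins (adjusted p 0.0342, edgeR), and ERBB2 averaged 53.4, 46.4 and 47.2 CPM. The smooth muscle genes ACTA2, MYH11 and DES were at or below 0.359 CPM. CPM here is the estimated count scaled to the library total after TMM adjustment. The summed level of 13 markers of other cell types was 12.5 to 18.9 CPM in control, 17.5 to 22.0 in shLMO2-1 and 17.4 to 21.0 in shLMO2-2, most of it COL1A1, with CD3E and LUM at 0 in every library. The epithelial sums of all hairpin libraries lay above those of control, but the markers did not move together. In shLMO2-1 2 of 8 were called higher (KRT8, EGFR) and 1 lower (KRT5), together 37.5%. In shLMO2-2 3 were called higher (KRT8, KRT18, KRT19), also 37.5%. Of all tested genes 4.54% were called higher and 3.88% lower in shLMO2-1, and 4.94% higher and 4.04% lower in shLMO2-2. The sums of the other markers overlapped control. Among them CD68, a macrophage marker, averaged 0.626 CPM in control, 1.77 in shLMO2-1 (adjusted p 0.0272, edgeR) and 1.40 in shLMO2-2 (adjusted p 0.0679), with all hairpin libraries above all controls. The part of these markers in the other results was not tested. LMO2 had 4, 35 and 19 counts in control replicates 1 to 3, then 2, 1 and 6 in shLMO2-1, and 1, 4 and 3 in shLMO2-2, and in CPM control replicate 1 (0.232) lay within the range of shLMO2-1 (up to 0.396) and above shLMO2-2 (up to 0.186). Its log2 fold change was −2.44 (SE 0.81, adjusted p 0.0907) in shLMO2-1 and −3.02 (SE 0.82, adjusted p 0.0441) in shLMO2-2. In the mean of both hairpins it was −2.73 (SE 0.66, adjusted p 0.0216, edgeR). The shLMO2-2 call was lost in 9 of 18 alternatives and that of the mean in 3 of 17. In shLMO2-1 the threshold was passed in 3 of 18. On the first principal component of all genes control replicate 1 stood farthest out, at −42.6, with the other controls at −18.2 and −20.6.

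NPR3 was the only one of the 3 receptors with more than a trace of RNA. It had 586, 894 and 762 counts in control replicates 1 to 3, or 34.0, 45.8 and 40.3 CPM. Under shLMO2-1 it had 212, 179 and 176 counts (11.9, 10.5 and 11.6 CPM). Under shLMO2-2 it had 199, 159 and 159 counts (8.65, 7.38 and 7.14 CPM). The 3 groups did not overlap: every control lay above every shLMO2-1 library, and every shLMO2-1 library above every shLMO2-2 library.

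The log2 fold change of NPR3 against control was −1.82 (SE 0.13) in shLMO2-1 and −2.37 (SE 0.13) in shLMO2-2, or levels 3.53-fold and 5.18-fold lower. Both comparisons use the same 3 control libraries. NPR3 lay above 63.0% of the 14709 tested genes by mean CPM in control, above 35.3% in shLMO2-1 and above 30.2% in shLMO2-2. In bulk RNA, fewer cells that make NPR3 and less NPR3 RNA per cell cannot be told apart.

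The choice of NPR3 did not rest on the difference between the hairpins, which was therefore tested. shLMO2-2 against shLMO2-1 was −0.55 (SE 0.13, 95% interval −0.85 to −0.26), with an adjusted p of 0.113 in edgeR's quasi-likelihood test, so it did not pass the threshold of 0.05. All 3 shLMO2-2 libraries lay below all 3 shLMO2-1 libraries. This contrast called 0.768% of all tested genes, 0.347% higher and 0.422% lower. The difference passed in DESeq2 (−0.55, adjusted p 0.0246), with no filter on low counts (−0.55, 0.0173), and without control replicate 1 (−0.55, 0.0393), and the adjusted p ran from 0.0173 to 0.366 over 18 alternatives.

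**Figure D1:**
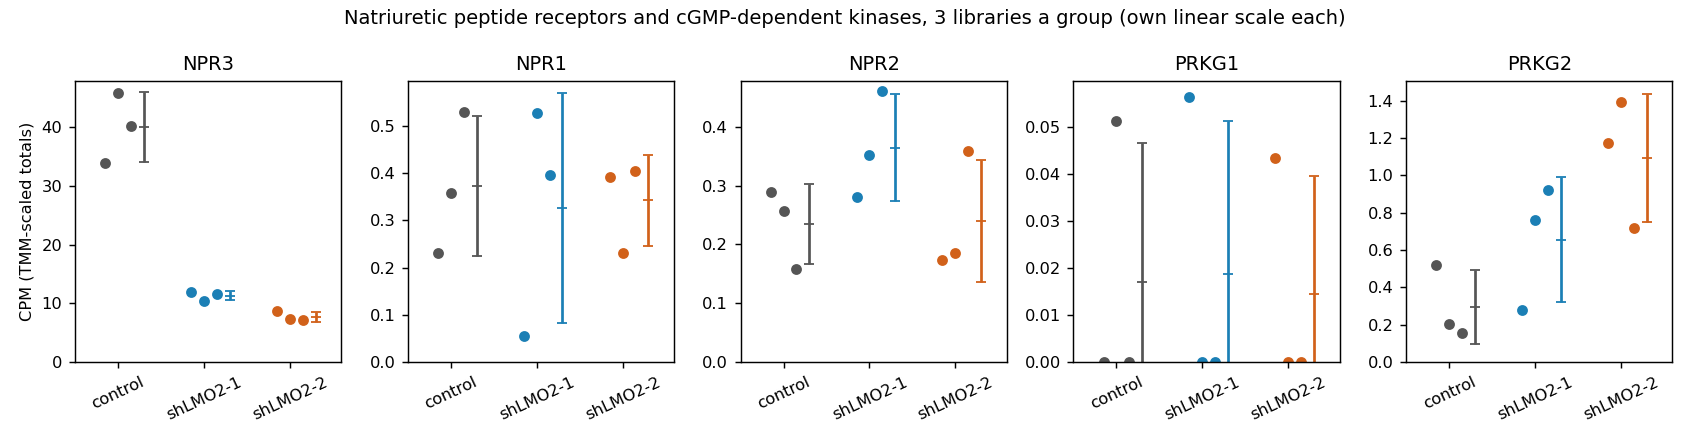
CPM of the 5 genes by library (points, replicates 1 to 3 from left to right) with the mean and SD of each group beside them (n = 3; a bar that would pass below 0 is cut at the axis). Each panel has its own linear scale: NPR3 spans 7.14 to 45.8 CPM with no overlap between groups, while no library of the other 4 genes passes 1.39 CPM.

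NPR1, the receptor for ANP and BNP (chromosome 1, 153678637–153693992, overlapping MIR8083), was close to the limit of counting. Control libraries held 4, 7 and 10 counts, shLMO2-1 libraries 1, 9 and 6, and shLMO2-2 libraries 9, 5 and 9. The groups overlapped. Summed over 3 libraries, NPR1 was at 0.377 CPM in control (95% exact Poisson interval 0.233 to 0.577), 0.320 in shLMO2-1 (0.183 to 0.520) and 0.344 in shLMO2-2 (0.218 to 0.517). These intervals cover counting error only.

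NPR2, the receptor for C-type natriuretic peptide (chromosome 9, 35792154–35809732), overlaps SPAG8 and is uncertain to that extent. It had 5, 5 and 3 counts in control, 5, 6 and 7 in shLMO2-1, and 4, 4 and 8 in shLMO2-2. Summed levels were 0.233 CPM in control (0.124 to 0.399), 0.360 in shLMO2-1 (0.213 to 0.569) and 0.240 in shLMO2-2 (0.137 to 0.389). Neither cyclase receptor passed the filter on low counts, and a difference between groups was not detectable at this depth in either.

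Set against each other per length, as CPM per kilobase of merged exons, the receptors differed far more in level than between groups. In control NPR3 was at 4.06 ± 0.601 (SD, n = 3), NPR1 at 0.0746 ± 0.0298 and NPR2 at 0.0608 ± 0.0176. In shLMO2-1 NPR3 was at 1.15 ± 0.0763, and in shLMO2-2 at 0.783 ± 0.0824, and its lowest library, at 0.724, still lay above the highest of NPR1 and NPR2 in any library, 0.119. NPR3 made up 96.7% of the summed per-length level of the 3 receptors in control (96.5% to 97.1% over 3 libraries), 87.8% in shLMO2-1 (84.4% to 93.5%) and 85.7% in shLMO2-2 (80.6% to 88.8%). NPR1 and NPR2 overlapped each other in every group, and so have no order.

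PRKG1, the kinase that relaxes smooth muscle (chromosome 10, 50990891–52298350), was all but absent. It had 1 count in each of control replicate 2, shLMO2-1 replicate 1 and shLMO2-2 replicate 1, and 0 in the other 6 libraries. A count of 0 allows up to 3 counts as a one-sided 95% limit, or 0.130 to 0.198 CPM across these libraries. The two-sided exact Poisson interval, the kind given for NPR1 and NPR2, reaches 0.160 to 0.243 CPM for 0 counts. PRKG1 overlaps CSTF2T, PRKG1-AS1 and 5 other genes, failed the filter and was not tested.

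PRKG2, the membrane-bound kinase known from gut and growth plate (chromosome 4, 81087370–81215117, minus strand, overlapping AC139722.1), was low and uneven. It had 9, 4 and 3 counts in control, 5, 13 and 14 in shLMO2-1, and 27, 30 and 16 in shLMO2-2. In CPM these were 0.522, 0.205 and 0.159, then 0.281, 0.762 and 0.923, then 1.17, 1.39 and 0.719. All 3 shLMO2-2 libraries lay above all 3 controls, while shLMO2-1 overlapped both other groups.

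On CPM of the plain library totals, without TMM, which the filter uses, PRKG2 met the level of 0.536 in 1 control, 2 shLMO2-1 and 3 shLMO2-2 libraries, so mainly libraries where it was higher brought it into the test. Its log2 fold change was 1.14 (SE 0.60) in shLMO2-1, with an adjusted p of 0.276, and 1.89 (SE 0.56) in shLMO2-2, with an adjusted p of 0.061 (edgeR quasi-likelihood). Neither passed, nor did the mean of both hairpins (1.52, SE 0.52, adjusted p 0.0833) or the difference between them (0.75, SE 0.51, adjusted p 0.699). In shLMO2-2 the adjusted p was 0.0206 with no filter, 0.0383 in DESeq2 and 0.0412 without control replicate 1, and ran from 0.0206 to 0.187 over 17 alternatives.

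Around these 5 genes stood a wider list of 76 genes of natriuretic peptide and cGMP signalling, of which 35 were tested, NPR3 and PRKG2 included. The list was written with earlier results of these data known, so its shares beside those of all genes are a description. Leaving out NPR3, 4 of 34 tested genes were called in shLMO2-1 (11.8%), where 8.42% of all tested genes were called in either direction. In shLMO2-2 7 of 34 were called (20.6%), against a background of 8.97%, and in the mean of both hairpins 7 of 34 (20.6%), against 12.4%. Of these calls, 2 were higher and 2 lower in shLMO2-1, 1 higher and 6 lower in shLMO2-2, and 2 higher and 5 lower in the mean. The lower calls of shLMO2-2 and of the mean include PLCB1, which the filter kept through the controls alone. All genes gave 4.54% higher and 3.88% lower in shLMO2-1, and 4.94% higher and 4.04% lower in shLMO2-2, and 6.47% higher and 5.93% lower in the mean.

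The median log2 fold change of those 34 genes was 0.03 in shLMO2-1 and −0.05 in shLMO2-2, where the median of all tested genes was 0.00091 and −0.00024. Between the hairpins none of the 35 genes, NPR3 included, was called in edgeR (8 of the 34 other than NPR3 had an unadjusted p under 0.05), and of those 34 limma-voom called 0 and DESeq2 called 1, ADCY3. PLCB1 could enter the test only by being higher in the controls. Without it 6 of 33 genes were called in shLMO2-2, 1 higher and 5 lower. In the mean 6 of 33 were called, 2 higher and 4 lower. The counts depended on the tool and on single libraries. DESeq2 called 9 in shLMO2-1, 11 in shLMO2-2 and 11 in the mean. The share of all genes that DESeq2 called is not given here, so these counts cannot be set against the edgeR shares. In shLMO2-1 the 4 calls became 2 without shLMO2-1 replicate 2 or replicate 3 and 7 without control replicate 1. In shLMO2-2 the 7 calls became 3, 2 and 2 without shLMO2-2 replicates 1, 2 and 3.

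**Figure D2:**
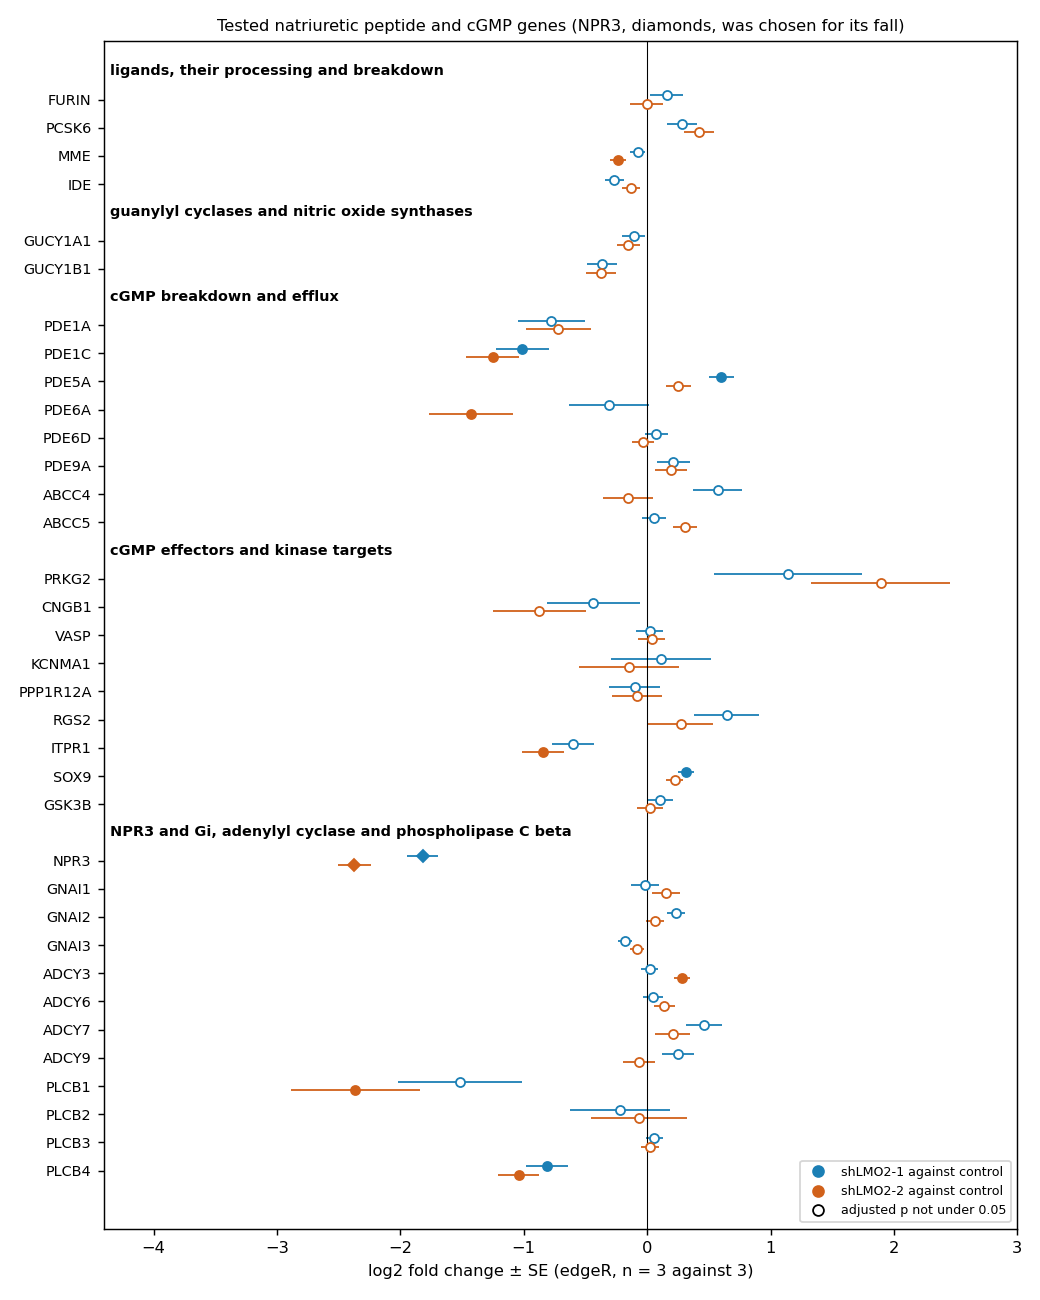
Log2 fold change of each tested gene of the list against control with its standard error (edgeR, 3 against 3 libraries), by role. Filled points have an adjusted p under 0.05: PDE1C and PLCB4 are filled for both hairpins, to the left of 0.

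The ligands were barely detected. NPPA (ANP) and OSTN (musclin, a ligand of NPR3) had 0 counts in all 9 libraries, NPPB (BNP) had 1 count in shLMO2-1 replicate 2, 6 in shLMO2-2 replicate 1 and 0 elsewhere, and NPPC (C-type natriuretic peptide) had 3 to 12 counts in every library. CORIN, the protease that activates ANP, had at most 3 counts.

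Of the listed enzymes that process or break down the peptides, all but CORIN passed the filter on low counts, with MME the highest. FURIN, which cleaves the precursors of BNP and C-type natriuretic peptide, averaged 22.6 ± 1.44 CPM (control), 25.2 ± 4.13 (shLMO2-1) and 22.5 ± 3.02 (shLMO2-2; SD, n = 3). MME (neprilysin), which degrades natriuretic peptides at the cell surface, was at 150, 150 and 167 CPM in control, 144, 151 and 148 in shLMO2-1, and 131, 131 and 135 in shLMO2-2. All 3 shLMO2-2 libraries lay below all others. MME fell in shLMO2-2 by 0.24 on the log2 scale (SE 0.06, adjusted p 0.0392, edgeR) and was −0.08 in shLMO2-1 (adjusted p 0.488).

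The MME call was lost without control replicate 3 (0.144), shLMO2-1 replicates 1 (0.0585) or 2 (0.0584), or shLMO2-2 replicates 1 (0.0967), 2 (0.112) or 3 (0.0857), and also with no filter (0.0743) or only the groups compared (0.0742). MME overlaps MME-AS1 and is uncertain to that extent.

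Of 13 genes for guanylyl cyclases, the guanylin peptides and nitric oxide synthases, only the 2 subunits of the nitric oxide receptor were tested. Those are GUCY1A1 (chromosome 4, 155666711–155732349) and GUCY1B1 (chromosome 4, 155758992–155807591), which pair to make cGMP in the cytosol. GUCY1A1 averaged 59.2 ± 6.18 CPM (control), 54.8 ± 5.18 (shLMO2-1) and 53.2 ± 3.09 (shLMO2-2), and was called in no contrast. GUCY1B1 was at 73.9, 57.8 and 56.6 CPM in control, 53.0, 50.05 and 42.9 in shLMO2-1, and 54.1, 45.7 and 45.3 in shLMO2-2, so all 6 hairpin libraries lay below all controls.

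GUCY1B1 fell in the mean of both hairpins by 0.37 (SE 0.10, adjusted p 0.0394, edgeR), and the change of −0.37 in each hairpin alone did not pass (adjusted p 0.0905 and 0.0803). Settings under which each hairpin alone passed included no filter (0.00919 and 0.00663) and DESeq2 (0.0444 and 0.0353). The mean missed the threshold without control replicate 1 (0.117) or replicate 3 (0.0538). It also missed it without replicate 2 or replicate 3 of shLMO2-1 (0.0716 and 0.0725) or of shLMO2-2 (0.0857 and 0.081). The nitric oxide synthases NOS1, NOS2 and NOS3 had at most 3 counts in a library.

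Among 18 genes of cGMP breakdown and export, 8 were tested. PDE1C (chromosome 7, 31751179–32299329, overlapping SNX2P2), a calcium- and calmodulin-stimulated phosphodiesterase of cGMP and cAMP, was at 5.39, 4.61 and 6.45 CPM in control, 2.87, 2.75 and 2.51 in shLMO2-1, and 1.74, 2.65 and 2.52 in shLMO2-2. Every hairpin library lay below every control. PDE1C fell by 1.01 in shLMO2-1 (SE 0.22, adjusted p 0.0165) and by 1.25 in shLMO2-2 (SE 0.21, adjusted p 0.00594, edgeR). The shLMO2-1 call was lost without control replicate 3 (0.0707) or shLMO2-1 replicates 2 (0.0587) or 3 (0.0644). Its relative PDE1A was at 2.87, 1.67 and 1.74 CPM on average in control, shLMO2-1 and shLMO2-2, also with every hairpin library below every control. The PDE1A changes of −0.78 and −0.72 did not pass (adjusted p 0.108 and 0.118), nor did the mean of both hairpins (−0.75, adjusted p 0.0537, edgeR). Without shLMO2-1 replicate 2 the mean was called.

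PDE5A (chromosome 4, 119494395–119628991, overlapping AC093752.1), the cGMP-specific phosphodiesterase that sildenafil inhibits, was the called breakdown gene that rose. It was at 22.6, 18.3 and 20.6 CPM in control, 29.9, 32.8 and 30.5 in shLMO2-1, and 22.4, 26.2 and 24.7 in shLMO2-2. The shLMO2-1 libraries lay above all others, and shLMO2-2 overlapped control. PDE5A rose by 0.60 in shLMO2-1 (SE 0.10, adjusted p 0.00569, edgeR) and was 0.25 in shLMO2-2 (adjusted p 0.143), while shLMO2-2 against shLMO2-1, at −0.35, missed the threshold (adjusted p 0.187).

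PDE6A (chromosome 5, 149857955–149944793, overlapping AC008427.1), a phosphodiesterase subunit of rod photoreceptors, had 26 to 44 counts in control, 21 to 29 in shLMO2-1 and 11 to 19 in shLMO2-2. It fell in shLMO2-2 by 1.43 (SE 0.34, adjusted p 0.0278, edgeR), with all 3 libraries below all 3 controls, and was −0.31 in shLMO2-1 (adjusted p 0.615). The call was lost without control replicates 1 (0.0595) or 2 (0.0785), without shLMO2-2 replicates 1 (0.0863), 2 (0.0538) or 3 (0.0815), and with only the groups compared (0.0548). The cGMP exporters ABCC4 and ABCC5 were called in no contrast of the main edgeR fit. ABCC4 was called in shLMO2-1 without control replicate 1, and between the hairpins with no filter.

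Of 19 cGMP effectors and kinase targets, 9 were tested. VASP, an actin regulator and a classic target of both kinases, averaged 145 ± 11.0 CPM (control), 147 ± 20.8 (shLMO2-1) and 149 ± 15.4 (shLMO2-2), with overlapping groups. ITPR1 (chromosome 3, 4493345–4847840, overlapping EGOT), a calcium channel of the endoplasmic reticulum opened by inositol trisphosphate, was at 41.9, 32.6 and 27.0 CPM in control, 25.03, 23.4 and 18.1 in shLMO2-1, and 21.8, 17.3 and 17.3 in shLMO2-2. All hairpin libraries lay below all controls. ITPR1 fell in shLMO2-2 by 0.84 (SE 0.17, adjusted p 0.0136) and in the mean by 0.72 (SE 0.14, adjusted p 0.00944), and was −0.60 in shLMO2-1 (adjusted p 0.0535, edgeR). The shLMO2-2 call was lost without its replicates 2 (0.067) or 3 (0.0621), and in shLMO2-1 the threshold was passed without control replicate 3 (0.0385), in DESeq2 (0.0106), with upper-quartile scaling (0.0477), with no filter (0.000245) and with at least 10 counts in every library (0.0491), among other settings.

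SOX9 (chromosome 17, 72121020–72126420, overlapping SOX9-AS1), a transcription factor that PRKG2 acts on in cartilage, was at 193, 186 and 206 CPM in control, 262, 236 and 228 in shLMO2-1, and 229.7, 230.4 and 222 in shLMO2-2. Every hairpin library lay above every control. SOX9 rose in shLMO2-1 by 0.31 (SE 0.07, adjusted p 0.0174) and in the mean by 0.27 (SE 0.06, adjusted p 0.0147), and was 0.22 in shLMO2-2 (adjusted p 0.065, edgeR). The shLMO2-1 call was lost without control replicate 2 (0.0548), without shLMO2-1 replicates 1 (0.0674) or 2 (0.0538), and with only the groups compared (0.0561), and that of the mean without control replicate 2 (0.0527). In shLMO2-2 SOX9 passed in DESeq2 (0.0277).

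The last group holds what NPR3 can act through: inhibitory G protein subunits, adenylyl cyclases and the phospholipase C beta enzymes. Besides NPR3, 11 of its 16 genes were tested. GNAI2 averaged 85.8 ± 5.01 CPM (control), 101 ± 6.37 (shLMO2-1) and 89.5 ± 4.24 (shLMO2-2). It was called in no contrast of the main edgeR fit, and neither were GNAI1 and GNAI3. GNAI3 was called in shLMO2-1 without control replicate 1. ADCY3 (chromosome 2, 24819169–24919839, overlapping CENPO), an adenylyl cyclase, was at 96.8, 85.6 and 90.9 CPM in control, 96.8, 90.4 and 89.97 in shLMO2-1, and 110.5, 116 and 106 in shLMO2-2. It rose in shLMO2-2 by 0.28 (SE 0.07, adjusted p 0.028, edgeR), where all 3 libraries lay above all others, and was 0.02 in shLMO2-1 (adjusted p 0.897).

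The ADCY3 call in shLMO2-2 was lost without control replicates 2 (0.0706) or 3 (0.0861), shLMO2-1 replicate 2 (0.0568), or shLMO2-2 replicates 1 (0.0839), 2 (0.125) or 3 (0.0654), and with total-count scaling (0.0776) or only the groups compared (0.066). In shLMO2-1 its sign turned with total-count scaling (−0.018).

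PLCB4 (chromosome 20, 9068763–9481242, overlapping no other gene), a phospholipase C that makes inositol trisphosphate, was at 21.6, 15.6 and 16.9 CPM in control, 11.9, 11.0 and 7.91 in shLMO2-1, and 9.65, 8.49 and 8.09 in shLMO2-2. All 6 hairpin libraries lay below all controls. PLCB4 fell by 0.81 in shLMO2-1 (SE 0.17, adjusted p 0.0156) and by 1.04 in shLMO2-2 (SE 0.17, adjusted p 0.00452, edgeR). The shLMO2-1 call was lost without shLMO2-1 replicate 3 (0.0537).

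PLCB1, beside it on chromosome 20 (8077251–8968360, overlapping PHKBP1 and 4 others), had 28, 20 and 13 counts in control, 6, 5 and 8 in shLMO2-1, and 6, 6 and 2 in shLMO2-2. The filter kept it through the controls alone, where it was higher, so it could enter the test only by being higher there. Its log2 fold change was −2.36 in shLMO2-2 (SE 0.52, adjusted p 0.02), −1.94 in the mean (SE 0.42, adjusted p 0.0136) and −1.52 in shLMO2-1 (adjusted p 0.0883, edgeR), and with no filter the first 2 had an adjusted p of 0.00658 and 0.00409. The shLMO2-2 call was lost without control replicate 1 (0.0635) or shLMO2-2 replicates 1 (0.0519), 2 (0.0594) or 3 (0.0779), and that of the mean without control replicate 1 (0.0652). The other members of the enzyme family, PLCB2 and PLCB3, were called in no contrast, and PLCB3 was the most abundant, at 70.2 to 81.9 CPM in all libraries.

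**Figure D3:**
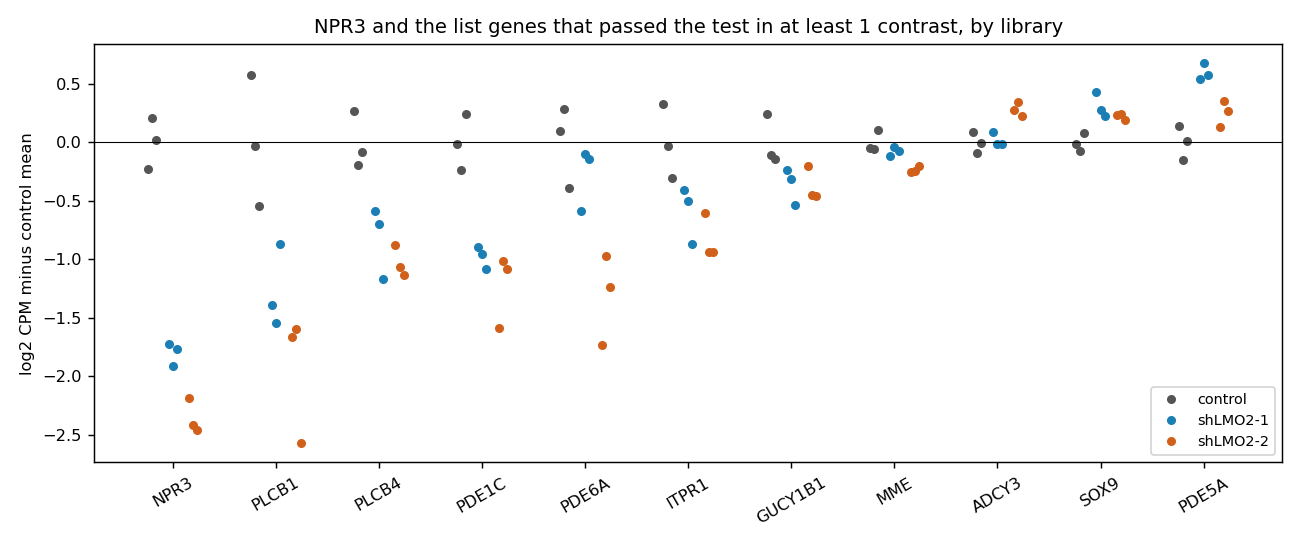
Level of NPR3 and of the 10 list genes called in at least 1 contrast, as log2 CPM of each library minus the mean of the 3 controls. On average NPR3 and PLCB1 lie farthest below the control mean, and the libraries of PLCB1 scatter more. NPR3 was chosen for its fall, and PLCB1 could enter the test only by being higher in the controls, so this order is a description. PDE5A, SOX9 and ADCY3 lie above 0 in at least 1 hairpin group.

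The genes around NPR3 were looked at to see whether the lower level extended along the chromosome. Of 41 other annotated genes within 1 Mb of NPR3, 7 were tested. The nearest tested gene on the lower-coordinate side was SUB1, a transcription coactivator 84991 bases away, with changes of −0.11 in shLMO2-1 (adjusted p 0.444) and 0.00 in shLMO2-2 (adjusted p 0.985, edgeR). On the other side it was TARS, the threonyl-tRNA synthetase, 648972 bases away, with −0.07 (adjusted p 0.438) and −0.10 (adjusted p 0.227).

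GOLPH3 (chromosome 5, 32124704–32174350), a Golgi protein 514720 bases away, fell in shLMO2-2 by 0.21 (SE 0.05, adjusted p 0.0324) and in the mean by 0.18 (adjusted p 0.0223), and was −0.16 in shLMO2-1 (adjusted p 0.0837, edgeR). Its libraries lay at 191 to 197 CPM in control, 171 to 175 in shLMO2-1 and 166 to 170.4 in shLMO2-2. The shLMO2-2 call was lost in 7 of 9 fits without a library, namely control replicates 2 (0.06) or 3 (0.0815), shLMO2-1 replicates 1 (0.0524) or 2 (0.0534), and shLMO2-2 replicates 1 (0.0858), 2 (0.0971) or 3 (0.0778). The call of the mean was lost without control replicates 2 (0.0545) or 3 (0.0685) or shLMO2-2 replicate 2 (0.0504). With no filter neither passed (0.128 and 0.0927), and with only the groups compared shLMO2-2 gave 0.0694.

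In shLMO2-1 none of the 7 was called in edgeR, 2 had an unadjusted p under 0.05, limma-voom called 0 and DESeq2 called 1, GOLPH3. Of all tested genes, edgeR called 8.42% in shLMO2-1, 8.97% in shLMO2-2 and 12.4% in the mean. With only 7 genes tested, edgeR counts of 0 or 1 cannot be told from these shares. Among the 7, the log2 fold changes spanned −0.46 to 0.09 (shLMO2-1) and −0.47 to 0.28 (shLMO2-2). The lowest in both was PDZD2, a PDZ-domain protein that was not called in edgeR with the filter and was called with no filter.

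**Figure D4:**
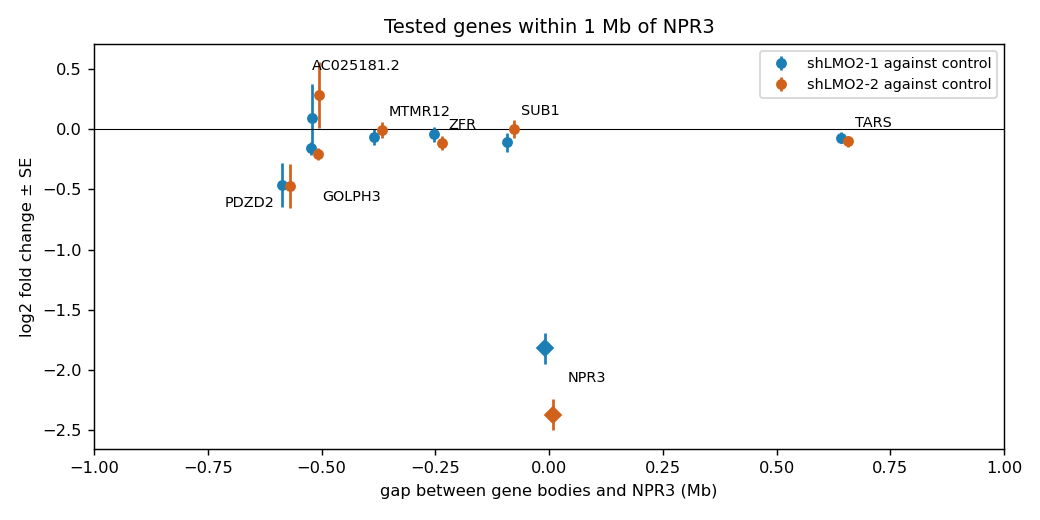
Log2 fold change with its standard error of NPR3 (diamonds, at 0) and of the 7 tested genes within 1 Mb (circles) against the gap between the gene bodies in Mb, with the points of the hairpins set slightly apart. The neighbours lie between −0.47 and 0.28, and NPR3 at −1.82 and −2.37.

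Genes whose pattern over the 9 libraries was most like that of NPR3 were ranked by Pearson's r of log2 CPM among 11030 tested genes with a mean of at least 5 CPM. All share these libraries and the step between control and hairpins, which any gene changed by both hairpins also has: r was above 0.9 for 172 genes and below −0.9 for 180. The 5 most alike were MFGE8 (r = 0.995), LGALS8 (0.985), NUP98 (0.985), OCIAD1 (0.981) and PEA15 (0.981). MFGE8, a secreted protein that binds dying cells and integrins (chromosome 15, 88898683–88913411), was at 84.2, 97.9 and 90.6 CPM in control, 62.9, 59.5 and 61.7 in shLMO2-1, and 57.0, 55.7 and 56.0 in shLMO2-2. Among the controls, replicate 1 was lowest and replicate 2 highest for both MFGE8 and NPR3.

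With the group means taken out, r to NPR3 over the 9 libraries was 0.908 for MFGE8, 0.700 for NUP98, 0.621 for OCIAD1, 0.209 for the galectin LGALS8 and 0.0155 for PEA15. The 3 most opposite were CSF3R, the receptor of granulocyte colony-stimulating factor (r = −0.987), the sphingosine-1-phosphate phosphatase SGPP1 (−0.984) and the translocon subunit SEC61G (−0.983). Their values with group means taken out were 0.161, −0.0830 and −0.733. All 8 genes were picked by an r that includes these same deviations, so the values are a description with no test. How many of all genes reach such values was not examined. With Spearman's rho in place of r, 2 of the 8 genes were named again, MFGE8 and SEC61G.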

How the data were processed

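RNA of 9 libraries was measured by poly(A)-selected bulk sequencing. The authors deposited estimated counts per gene symbol; between 11.67% and 12.81% of a library's values are not whole. Per the submitters' processing notes, Salmon 0.12, DESeq2 1.22.2 and GRCh38.p12 were used, with no role or order given. The annotation release and use of strand are not given in the sources used here, so overlapping and antisense genes are uncertain. Positions come from GENCODE 29 (GRCh38) and windows from RefSeq (GRCh38.p14), where all 5 members matched by symbol.

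Counts were rounded and tested with edgeR 4.0.16 (R 4.3.3): TMM scaling, filterByExpr (minimum count 10, total 15) with LMO2 added back, 14709 genes, a quasi-likelihood fit of 3 groups over all 9 libraries, and Benjamini-Hochberg adjustment over all tested genes, called under 0.05. Standard errors derive from the F statistic. Log2 CPM used a prior count of 2. No 2 libraries were copies (chi-square per gene between replicates at least 4.98). Both hairpins share the controls. Members and lists were chosen with earlier results of these data known. Named were the 5 members, LMO2, list genes called in any contrast, landmark genes, the nearest and called neighbours, and the 5 genes most like and 3 most unlike NPR3. CD68, the receptors and keratins beside it, PDE1A, PDZD2, ABCC4 and the abundance of PLCB3 were added after their values were seen. Alternatives used limma-voom (limma 3.58.1), DESeq2 1.42.0, other scalings and filters, and fewer libraries. The fit was tested on simulated data.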

Additional observations from a re-analysis of the deposited data

How the results depend on the processing

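The log2 fold change of NPR3 against control stayed within the spread of the replicates under all 18 alternatives in each hairpin and all 17 in the mean of both. Without 1 library each it ran from −1.93 to −1.71 in shLMO2-1, −2.48 to −2.26 in shLMO2-2, −2.21 to −1.99 in the mean and −0.65 to −0.50 between the hairpins. The difference between the hairpins passed the threshold with no filter on low counts (−0.55), in DESeq2 (−0.55) and without control replicate 1 (−0.55).

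The number of list genes called other than NPR3, from 4 in shLMO2-1, 7 in shLMO2-2, 7 in the mean and 0 between the hairpins, moved by over 1.5 times as follows. DESeq2 gave 9, 11, 11 and 1, no filter gave 1 between the hairpins (ABCC4), total counts gave 11 in the mean, and only the groups compared gave 4 in shLMO2-2. Without 1 library each the counts ran from 2 to 7, 2 to 7, 5 to 7 and 0 to 0. The shares of all genes called under these settings are not given, so the counts stand without a background.

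Of the genes within 1 Mb of NPR3, called were 0 in shLMO2-1, 1 in shLMO2-2, 1 in the mean and 0 between the hairpins. The shares of all tested genes were 8.42%, 8.97%, 12.4% and 0.768%. Total counts (GOLPH3), no filter (PDZD2) and DESeq2 (GOLPH3) gave 1 in shLMO2-1, DESeq2 gave 2 in the mean, and only the groups compared gave 0 in shLMO2-2. Without 1 library each the counts ran from 0 to 0, 0 to 1, 0 to 1 and 0 to 0.

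Replicate numbers are shared between the groups, but the labels do not state pairs, so the main fit took none. Same-numbered libraries deviated together with r over 0.1 in 6 of 9 pairs (−0.0635 to 0.296). Libraries with different numbers did so in 2 of 18 pairs (−0.308 to 0.182). Whether same-numbered libraries share an effect was not tested. A replicate block gave 10 list genes in shLMO2-1, 10 in shLMO2-2 and 11 in the mean, and 0, 2 and 2 neighbours. The share of all genes called with the block is not given either. With the block GUCY1B1 passed in each hairpin (adjusted p 0.00723 and 0.00544) and ITPR1 in shLMO2-1 (0.00196, edgeR). Of the 9 libraries, 5 correlated best with their own number in both other groups.

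Signs turned where values were near 0. ADCY3 in shLMO2-1 went from 0.02 to −0.018 with total counts, and ran from −0.022 to 0.059 without 1 library each. GUCY1B1 between the hairpins went from −0.01 to 0.0027 with upper-quartile scaling, and ran from −0.10 to 0.058 without 1 library each. LMO2 between the hairpins, −0.57, ran from −1.002 to 0.45 without 1 library each. The causes were not tested. With the median transcript length in place of merged exons, the control level per kilobase was 22.8 for NPR3, 0.219 for NPR1, 0.302 for NPR2, 0.0101 for PRKG1 and 0.113 for PRKG2. The mean of NPR2 was then above that of NPR1, but their control libraries overlapped (0.204 to 0.373 and 0.136 to 0.310), so they again have no order. Depth limits NPR1, NPR2, PRKG1 and PRKG2, which had at most 30 counts in a library.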
